A study of Homo sapiens with 16 samples.

Results

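HSPA8, HSPA2, HSPH1, HSPA4 and HSPA4L code for the cytosolic HSP70 and HSP110 chaperones that cells make without stress. They were taken by gene symbol from the deposited RNA-seq and Ribo-seq tables, as 5 of 23597 and 5 of 19201 genes, and are listed there as gene24544_HSPA8, gene28569_HSPA2, gene26938_HSPH1, gene12136_HSPA4 and gene10418_HSPA4L. The cells were WI-38, human lung fibroblasts that divide a limited number of times in culture. The cells called young had reached passage 24, and those called senescent passage 36. In each state there were controls and cells given 2 h of heat shock at 44 °C, which the labels spell 440C. All cells, controls included, had been starved of serum and given it back before the experiment, and all belong to 1 cell line. RNA-seq measured transcripts, and Ribo-seq measured the footprints of ribosomes on them. Each of the 8 groups held 2 libraries, and nothing in the labels says that they came from separate cultures, so p values measure the spread between these libraries.

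HSP70 proteins bind and release unfolded stretches of other proteins in a cycle that hydrolyses ATP. J-domain proteins bring clients and start the hydrolysis, and nucleotide exchange factors reset the chaperone by removing ADP. HSP110 proteins are large relatives of HSP70 that act as its main exchange factors, and together with J-domain proteins they pull apart protein aggregates. HSPA8 (HSC70) is the abundant housekeeping HSP70, which also uncoats clathrin vesicles and serves chaperone-mediated autophagy. HSPA2 is an HSP70 best known from the testis. HSPH1 (HSP105), HSPA4 (APG-2) and HSPA4L (APG-1) are the HSP110 members of the cytosol. Heat shock activates the transcription factor HSF1, which binds heat shock elements, inverted repeats of GAA, in the promoters of its targets.

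RefSeq held the start of all 5 genes (build GRCh38.p14), with 3 start sites for HSPA4L and 1 for each other gene. The 250 bases before each start were searched on both strands for a heat shock element of 3 units, GAANNTTCNNGAA or TTCNNGAANNTTC, and of 2 units, GAANNTTC or TTCNNGAA, where N is any base. The shorter motifs lie inside the longer ones. HSPA8, HSPH1 and HSPA2 are shown because they give the contrast of the values below, with HSPA8 and HSPH1 rising on heat shock and HSPA2 not passing the test. Their positions are chr11:123062137-123062386 on the minus strand, chr13:31162389-31162638 on the minus strand and chr14:64540491-64540740 on the plus strand. Each sequence runs 5′ to 3′ toward the start, and capitals mark elements of 3 units.

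HSPA8: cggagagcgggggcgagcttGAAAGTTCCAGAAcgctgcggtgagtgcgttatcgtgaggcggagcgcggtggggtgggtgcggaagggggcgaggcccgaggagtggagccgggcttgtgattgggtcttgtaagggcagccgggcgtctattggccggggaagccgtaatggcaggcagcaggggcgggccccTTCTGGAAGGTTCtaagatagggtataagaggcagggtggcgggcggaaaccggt
HSPH1: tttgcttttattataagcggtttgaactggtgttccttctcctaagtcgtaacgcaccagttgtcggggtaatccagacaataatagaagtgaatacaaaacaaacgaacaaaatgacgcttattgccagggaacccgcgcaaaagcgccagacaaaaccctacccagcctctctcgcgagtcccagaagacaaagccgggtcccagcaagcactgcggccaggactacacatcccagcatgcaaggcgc
HSPA2: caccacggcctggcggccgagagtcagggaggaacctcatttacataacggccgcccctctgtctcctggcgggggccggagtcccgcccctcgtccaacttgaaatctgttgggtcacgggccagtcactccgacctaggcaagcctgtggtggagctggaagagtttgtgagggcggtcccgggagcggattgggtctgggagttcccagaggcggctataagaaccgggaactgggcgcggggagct

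HSPA8 carried 2 elements of 3 units, GAAAGTTCCAGAA from base 230 to 218 before the start and TTCTGGAAGGTTC from base 55 to 43. Of 35116 windows of this length over all genes, 155 (0.441%) held such an element. The windows of HSPH1, HSPA2 and HSPA4 held neither motif. At 1 of the HSPA4L start sites an element of 2 units, TTCTCGAA, lay from base 170 to 163, a motif found in 11.6% of all windows. A match is a description of these letters, and its absence says nothing of elements elsewhere.

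The libraries held 26434514 to 37126871 RNA-seq counts and 4581141 to 9104077 Ribo-seq counts. All 9 fibroblast markers were above 1 TPM (a transcript level scaled by length), with sums of 9956 to 15153, while the summed endothelial and immune markers stayed at or below 0.70 TPM. Of 5 epithelial markers EPCAM and CDH1 stayed at or below 0.43 TPM, and the keratins KRT8, KRT18 and KRT19 made sums of 133 to 147 TPM in young and 188 to 224 TPM in senescent cells. Between senescent and young controls the RNA of CDKN1A, an inhibitor of the cell cycle, differed by 0.95 ± 0.28 and that of LMNB1, a lamin lost in senescence, by −1.23 ± 0.48 on the log2 scale, and neither passed the test (adjusted p = 0.432 and 0.653). The other listed markers of state, CDKN2A (0.28 ± 0.29) and MKI67 (−1.18 ± 0.72), did not pass either (adjusted p = 0.913 and 0.815). The young control footprint libraries differed far less from each other than other replicate pairs did (chi-square per gene 1.73, against 17.2 to 38.7 in the other Ribo-seq groups), so the heat shock calls of the 5 genes that end with both counted as 1 sample are given with that value. Below, levels are CPM, counts relative to library size with the libraries scaled to each other by TMM, with replicate 1 before replicate 2, unless TPM is named. Changes are log2 fold changes ± SE between groups of 2 libraries, with p values from edgeR's quasi-likelihood test adjusted over all genes tested, and a threshold of 0.05. Where the libraries of a heat-shocked group and its controls do not overlap, that order carries no test, and its share over all genes was not counted. In bulk samples less RNA per cell and fewer cells that hold it cannot be told apart.

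At rest HSPA8 stood far above its relatives. By TPM the order in young controls was HSPA8 (1963 in RNA, mean of 2 libraries), HSPA4 (140), HSPH1 (50.4), HSPA2 (18.2) and HSPA4L (3.30). Senescent controls had the same order, with 2128, 121, 42.3, 12.3 and 4.47 TPM, and no neighbours in either order overlapped between libraries. Footprints gave this order too, from 1295 TPM for HSPA8 to 3.51 for HSPA4L in young controls and from 1872 to 6.33 in senescent controls. In RNA, HSPA8 ranked between place 63 and 97 of the 11573 to 11973 genes at or above 1 TPM in a control library.

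Heat shock raised HSPA8 in both states and both assays. In young cells its RNA went from 2382 and 1990 CPM to 7756 and 7230 CPM. The heat-shocked libraries lay far above the controls, a rise of 1.78 ± 0.17 (3.43-fold, adjusted p = 0.00343). In senescent cells the RNA went from 2831 and 2390 CPM to 5939 and 5414 CPM, again without overlap, a rise of 1.12 ± 0.17 (2.17-fold, adjusted p = 0.0415). This last call was lost when any 1 of the 8 RNA-seq libraries was left out (adjusted p from 0.0812 to 0.248) and with limma on log2(TPM + 1) (0.92, adjusted p = 0.0924), and that in young cells was lost without young control replicate 2 (adjusted p = 0.0619).

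Ribosome footprints on HSPA8 went from 2638 and 2604 CPM to 11142 and 9098 CPM in young cells, a rise of 1.95 ± 0.23 (3.86-fold, adjusted p = 0.00557). With the young control libraries counted as 1 sample the change was 1.95 with adjusted p = 0.101, and without either of them it was 0.103 or 0.105. Senescent cells went from 4378 and 3192 CPM to 12974 and 10115 CPM, a rise of 1.61 ± 0.23 (3.05-fold, adjusted p = 0.00836; 0.0525 without senescent control replicate 2). In each state both heat-shocked libraries were above both controls. Of the 28-base words in the coding sequence of HSPA8 (GENCODE v29), 57.9% also occur in transcripts of 13 other genes, the processed pseudogenes HSPA8P1, HSPA8P8 and HSPA8P5 ahead of the rest. How the counting shared out such reads is not stated in the labels, so HSPA8 levels are uncertain by an amount that was not measured. The share is one of words in the sequence and not of reads. For HSPA2 the share was 2.22%, and for each HSP110 gene it was 0.

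HSPA2 did not pass the test on heat shock in either assay. Its RNA was at 15.2 and 31.2 CPM in young controls and at 7.99 and 20.3 CPM after heat shock, and at 12.4 and 21.8 against 9.45 and 16.1 CPM in senescent cells. The groups overlapped in both states, with differences of −0.71 ± 0.54 (adjusted p = 0.838) and −0.42 ± 0.54 (adjusted p = 0.907). Replicate 2 was above replicate 1 in all 4 RNA groups, and within each replicate number the heat-shocked library was the lower, at 0.525 and 0.652 of the control in young and at 0.763 and 0.739 in senescent cells. RNA-seq libraries with the same number deviated together over all genes, so changes in RNA were also computed with the replicate number as a block. With that block HSPA2 RNA fell by 0.76 in young cells (adjusted p = 0.035) and did not pass in senescent cells. Footprints on HSPA2 were at 30.8 and 25.5 CPM in young controls and 28.1 and 52.2 CPM after heat shock, which overlap, with a difference of 0.52 ± 0.37 (adjusted p = 0.543). In senescent cells they were at 21.7 and 19.8 against 22.6 and 44.2 CPM, where the lowest heat-shocked library sat just above the controls (0.68 ± 0.38, adjusted p = 0.273).

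HSPH1 had the largest heat shock changes of the 5 genes in each assay and state. Its RNA in young cells went from 148 and 96.6 CPM to 3533 and 1504 CPM, a rise of 4.36 ± 0.57 (20.5-fold, adjusted p = 0.0256), the 28th highest change of 13177 genes. The heat-shocked libraries differed from each other 2.35-fold, and the call was lost without young control replicate 1 or 2, young heat-shocked replicate 1 or senescent control replicate 1 or 2 (adjusted p from 0.0549 to 0.199). Without young heat-shocked replicate 1 the change was 3.62 (adjusted p = 0.0709). In senescent cells the RNA was at 141 and 86.2 CPM in controls and at 1954 and 615 CPM after heat shock. All heat-shocked libraries were above all controls, yet the change of 3.50 ± 0.57 missed the threshold (adjusted p = 0.0725). It passed with the replicate block (3.34, adjusted p = 0.00034).

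Footprints on HSPH1 varied less between libraries than its RNA. They went from 130 and 137 CPM to 4045 and 3310 CPM in young cells, a rise of 4.78 ± 0.23 (27.5-fold, adjusted p = 0.000183). In senescent cells they went from 178 and 143 CPM to 3412 and 2285 CPM, a rise of 4.15 ± 0.23 (17.8-fold, adjusted p = 0.000335). These were the 12th and the 26th highest changes of 11288 genes.

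HSPA4 sat above its controls in every heat-shocked library by a smaller margin. Its RNA was at 243 and 188 CPM in young controls and 629 and 477 CPM after heat shock, a change of 1.36 ± 0.29 (adjusted p = 0.0867). In senescent cells it was at 232 and 177 against 395 and 245 CPM, a change of 0.65 ± 0.29 (adjusted p = 0.608). Neither passed, and with the replicate block both did (1.36, adjusted p = 0.000562, and 0.62, adjusted p = 0.0264). Footprints on HSPA4 were at 328 and 353 CPM in young controls and 1160 and 802 CPM after heat shock (1.53 ± 0.30, adjusted p = 0.0573). Senescent cells had 417 and 340 against 1112 and 588 CPM (1.17 ± 0.30, adjusted p = 0.0508). Both footprint changes missed the threshold narrowly, and DESeq2 called both (adjusted p = 0.00015 and 0.00463).

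HSPA4L, the scarcest of the genes at rest, spread widely between replicates in RNA. Its RNA was at 8.13 and 3.71 CPM in young controls and 143 and 34.8 CPM after heat shock, a change of 3.90 ± 0.75 (adjusted p = 0.0861; 3.74 and adjusted p = 0.000631 with the replicate block). The heat-shocked libraries lay above the controls and differed 4.10-fold from each other, and the change ran from 2.55 without replicate 1 of them to 4.6 without replicate 2 (adjusted p = 0.0463). In senescent cells it was at 10.2 and 7.16 against 34.1 and 9.68 CPM, where the groups overlap (1.34 ± 0.75, adjusted p = 0.747; 0.15 and 1.96 without heat-shocked replicate 1 and 2). Footprints on HSPA4L went from 9.46 and 9.42 CPM to 112 and 75.3 CPM in young cells, a rise of 3.31 ± 0.31 (9.90-fold, adjusted p = 0.00206). In senescent cells they went from 17.1 and 17.4 CPM to 61.2 and 34.2 CPM, a rise of 1.47 ± 0.31 (2.78-fold, adjusted p = 0.0276). Neither state showed overlap in footprints. The senescent call was lost with the young control libraries counted as 1 sample (adjusted p = 0.0673), without any 1 of the 4 control libraries (adjusted p from 0.0671 to 0.118), without senescent heat-shocked replicate 1 (0.95, adjusted p = 0.0536) and with limma on log2(TPM + 1) (0.97, adjusted p = 0.124). The HSPA4L control values rest on 82 to 103 footprint counts a library.

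**Figure D1:**
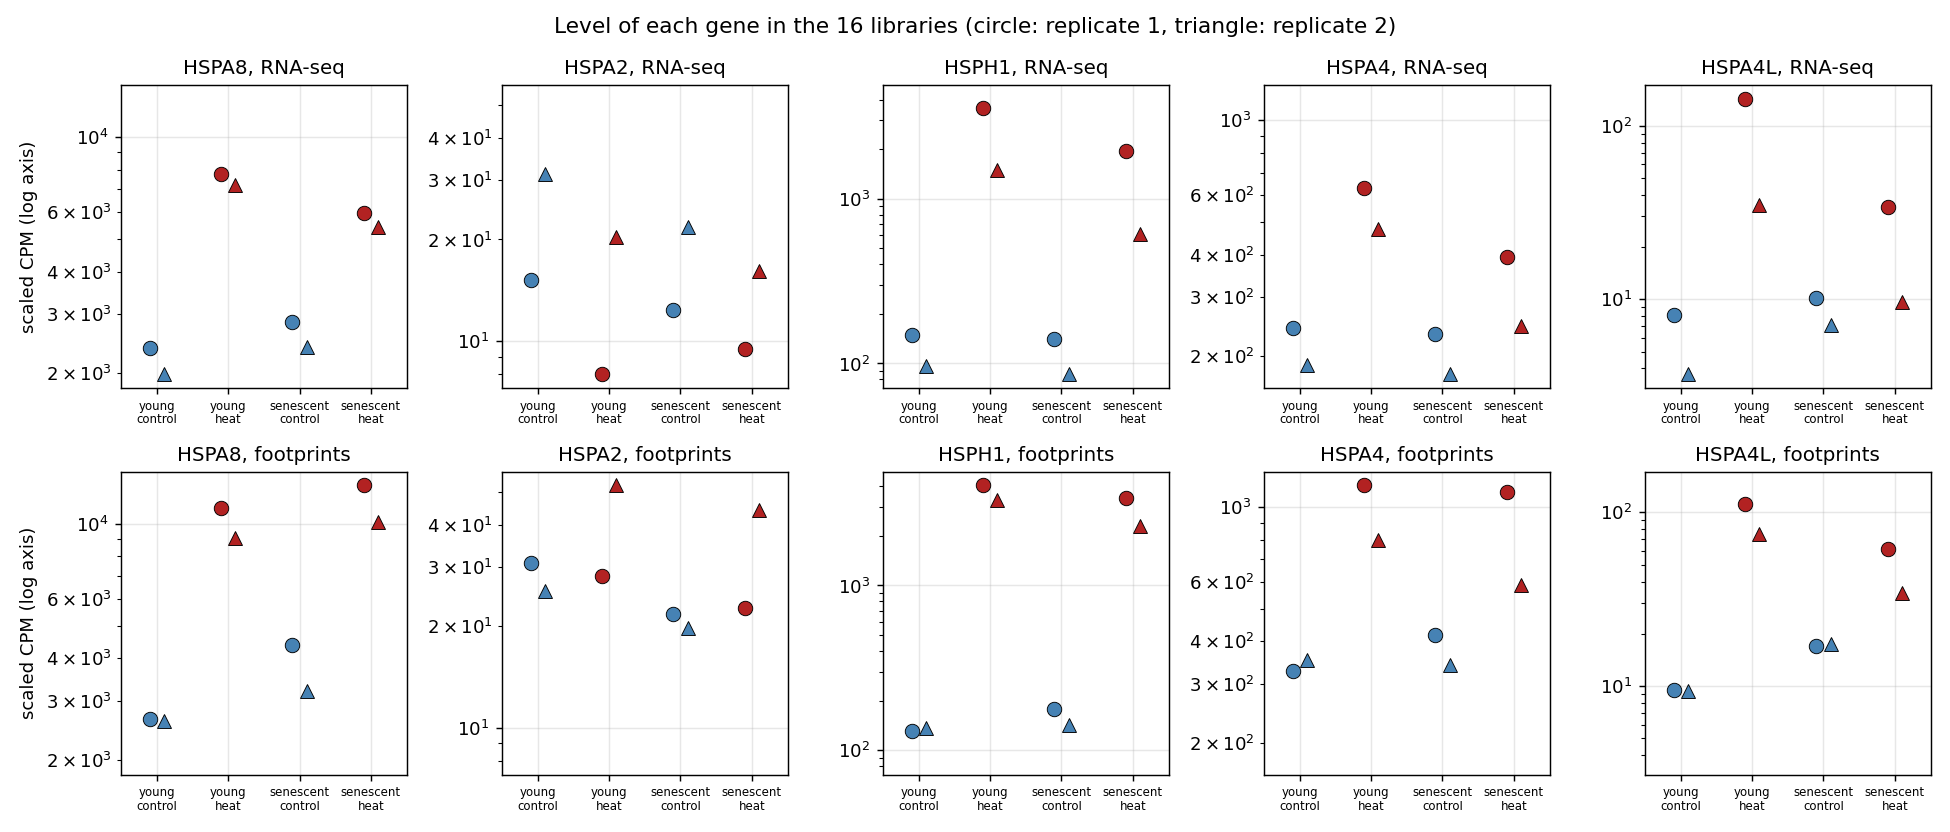
Level of each gene in the 16 libraries, in scaled CPM on a log axis, RNA-seq above and footprints below, with blue for control, red for heat shock, circles for replicate 1 and triangles for replicate 2. HSPA8, HSPH1 and HSPA4 are higher in all heat-shocked libraries than in the controls of the same state, an order that carries no test. By edgeR's test HSPA4 passed in neither state of either assay, and HSPH1 RNA did not pass in senescent cells. The nearest HSPA4 libraries in RNA of senescent cells are at 245 CPM after heat shock and 232 CPM in controls. HSPA2 shows 7.99 to 31.2 CPM in RNA with overlapping groups.

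Over the 5 genes, RNA rose for 2 in young cells (HSPA8 and HSPH1), where 1.14% of all genes tested passed and 0.668% rose. It rose for 1 in senescent cells (HSPA8), where 0.577% passed and 0.364% rose. Footprints rose for HSPA8, HSPH1 and HSPA4L, 3 of the 5, in each state, where 1.15% of all genes passed and 0.771% rose in young cells, and 8.35% passed and 3.12% rose in senescent cells. None of the 5 fell. These shares move with single libraries: with 1 left out, the genes called numbered 33 to 123 in place of 150 and 15 to 65 in place of 76 in RNA of young and senescent cells, lowest without young control replicate 1 and senescent control replicate 2. In footprints they numbered 27 to 275 in place of 130, lowest without either young control, and 237 to 1934 in place of 943, lowest without senescent heat-shocked replicate 2 and highest without replicate 1. The median change over the 5 genes was 1.78 in RNA of young and 1.12 of senescent cells, and 1.95 and 1.47 in footprints, against −0.01 to 0.03 over all genes tested. With the replicate block RNA passed for 5 in young cells (4 higher, HSPA2 lower) and for 3 in senescent cells, against 8.77% and 6.28% of all genes. Under scaling by library size alone the median change of all genes on heat shock was −0.27 and −0.23 in RNA and −0.28 and −0.25 in footprints. Under that scaling HSPA8 RNA in senescent cells no longer passed (0.90, adjusted p = 0.0932).

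**Figure D2:**
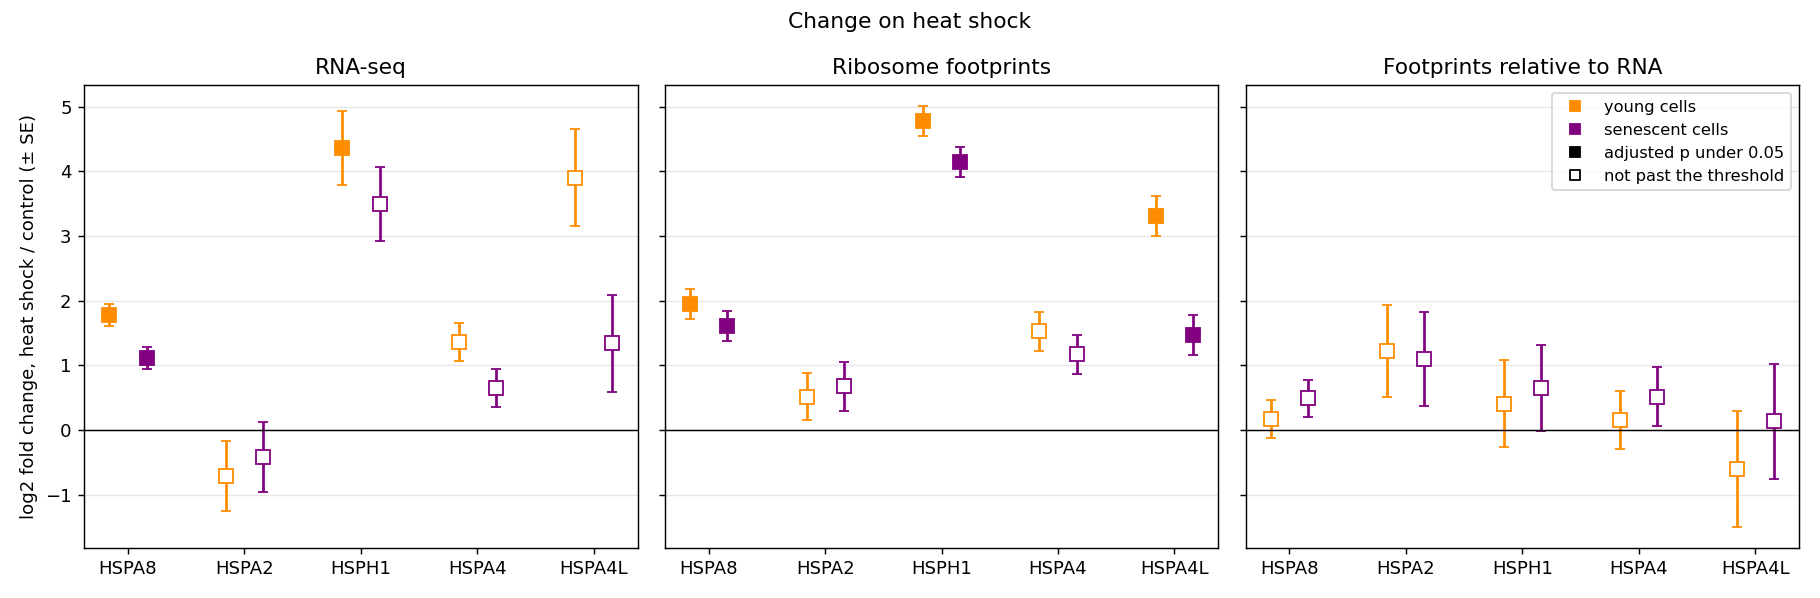
Log2 fold change on heat shock (± SE, 2 libraries per group) of each gene in RNA, in footprints and in footprints relative to RNA, orange for young and purple for senescent cells. Filled squares passed the test, from 1.12 for HSPA8 RNA in senescent cells to 4.78 for HSPH1 footprints in young cells, and no square is filled in the panel of footprints relative to RNA.

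The order of the genes by level was different after heat shock. By mean TPM in RNA of young cells HSPA8 (5600) was followed by HSPH1 (882), HSPA4 (300), HSPA4L (42.5) and HSPA2 (9.23), with no overlap between neighbours. HSPH1 thus went from below to above HSPA4, and HSPA4L from below to above HSPA2. Senescent cells had the same order of means (4038, 441, 167, 10.1 and 7.85 TPM), though there HSPH1 overlapped HSPA4 and HSPA4L overlapped HSPA2. In footprints the order was again the same, and only HSPA4L and HSPA2 in senescent cells overlapped (means of 14.2 and 12.9 TPM).

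HSPA8 was nearly all of the cytosolic HSP70 pool in controls and a minor part of it after heat shock. The pool is the summed TPM of HSPA8, HSPA2 and the other cytosolic HSP70 genes HSPA1A, HSPA1B, HSPA1L, HSPA6 and HSPA14. In RNA, HSPA8 made up 93.7% and 91.2% of it in young controls and 18.9% and 13.7% after heat shock. Senescent cells gave 95.1% and 92.7% against 21.0% and 14.2%. In footprints the share was 92.2% and 92.7% against 29.3% and 24.4% in young cells, and 95.3% and 94.1% against 36.9% and 22.0% in senescent cells. After heat shock the share of HSPA8 was below that of all controls although its own level was higher, since the whole pool in RNA stood at 1892 to 2472 TPM in controls and at 21782 to 38098 TPM after heat shock. HSPA2 was at most 1.27% of the pool in any library. With 2 against 2 libraries an exact two-sided permutation test cannot give p under 0.333, so these shares carry no test.

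The HSP110 genes taken as a sum stood higher relative to HSPA8 after heat shock in footprints. Per 100 TPM of HSPA8 their summed footprints were 13.5 and 14.6 TPM in young controls and 36.0 and 33.5 after heat shock, and 10.5 and 11.5 against 27.1 and 21.6 in senescent cells. In RNA the values were 10.4 and 9.13 against 28.1 and 14.7 in young cells, and 8.43 and 7.18 against 20.4 and 8.63 in senescent cells, all without overlap except that senescent heat-shocked replicate 2 barely cleared the controls. Relative to the whole HSP70 pool the ratio went the other way in RNA, from 6.65 to 9.79 per 100 TPM in controls to 1.23 to 5.31 after heat shock. In footprints it was 12.4 and 13.5 in young controls against 10.5 and 8.17 after heat shock, and 10.0 and 10.8 against 10.0 and 4.75 in senescent cells, where heat-shocked replicate 1 was level with control replicate 1. Within the HSP110 genes HSPA4 held 67.8% to 74.6% in all control libraries of both assays, and HSPH1 held 60.9% to 79.5% in all heat-shocked ones. HSPA4L stayed between 1.12% and 4.14%. The higher sum relative to HSPA8 does not hold for each gene. In footprints the log2 change of HSPA4 was below that of HSPA8, at 1.53 against 1.95 in young and 1.17 against 1.61 in senescent cells. That of HSPA4L was below it in senescent cells only (1.47), and that of HSPH1 was above it in both states. These differences between genes were not tested.

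**Figure D3:**
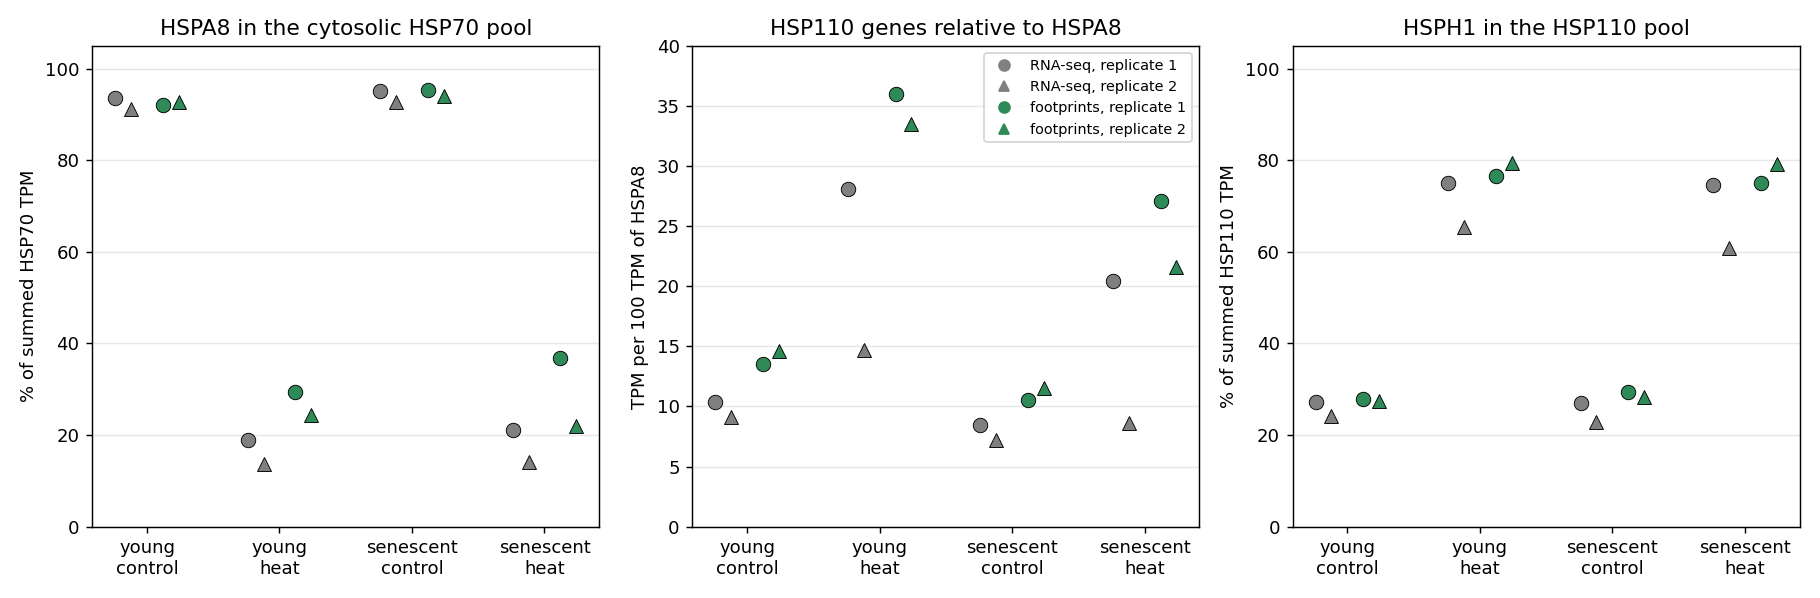
Shares by TPM in each library, grey for RNA-seq and green for footprints, circles for replicate 1 and triangles for replicate 2: HSPA8 in the cytosolic HSP70 pool, HSP110 genes per 100 TPM of HSPA8, and HSPH1 in the HSP110 pool. HSPA8 is above 91% of the HSP70 pool in every control and at most 36.9% after heat shock, while HSPH1 is at most 29.3% of the HSP110 pool in controls and at least 60.9% after heat shock.

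Whether the heat shock response of these genes differed between the states was tested as the senescent minus the young change. HSPA8, HSPH1, HSPA4 and HSPA4L had negative differences in both assays, HSPA2 had positive ones, and none passed. HSPA4L had the largest differences, −2.56 ± 1.06 in RNA (95% interval −4.99 to −0.13, adjusted p = 1) and −1.83 ± 0.44 in footprints (−2.83 to −0.83, adjusted p = 0.834). With 1 library left out they ran from −3.76 to −1.21 in RNA, the ends being without replicate 1 of the senescent and of the young heat-shocked libraries, and from −2.34 to −1.5 in footprints. For HSPA8 they were −0.66 ± 0.25 in RNA (−1.22 to −0.09, adjusted p = 1) and −0.34 ± 0.32 in footprints (−1.07 to 0.39, adjusted p = 0.855). HSPH1 gave −0.86 ± 0.81 and −0.63 ± 0.33, HSPA4 −0.71 ± 0.40 and −0.36 ± 0.43, and HSPA2 0.29 ± 0.76 and 0.17 ± 0.53. By edgeR's test 0 of 13177 genes passed in RNA and 0 of 11288 in footprints (0% of genes each), with 119 and 554 at an unadjusted p under 0.05. DESeq2 called 3 and 10 genes, and limma on log2(TPM + 1) called 2 and 0.

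**Figure D4:**
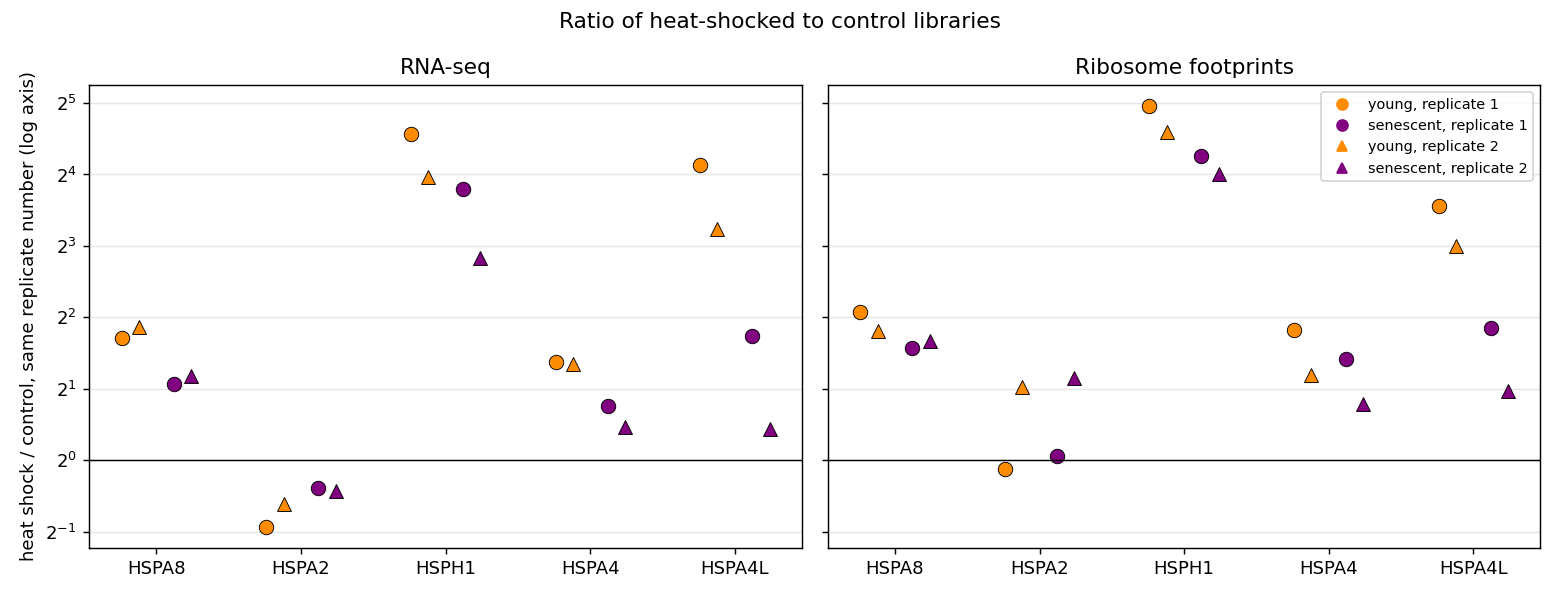
Ratio of the heat-shocked to the control library of the same replicate number for each gene, on a log axis, orange for young and purple for senescent cells. HSPA4L footprints give 11.8 and 8.00 in young against 3.59 and 1.96 in senescent cells, and in RNA all HSPA2 ratios are under 1. In footprints same-numbered libraries deviated together less than in RNA (correlations over genes of −0.0465 to 0.373), so those ratios are one way to match them.

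Senescent and young controls did not differ past the threshold in any of the 5 genes, in RNA (0.0379% of genes passed) or in footprints (0%; 885 genes at an unadjusted p under 0.05, 120 called by DESeq2 and 0 by limma). The differences of footprints were 0.87 ± 0.32 for HSPA4L (adjusted p = 0.546) and 0.53 ± 0.23 for HSPA8 (adjusted p = 0.624), with senescent libraries above young ones without overlap for both. HSPH1 gave 0.26 ± 0.24, where the lower senescent library only just cleared the higher young one (143 against 137 CPM). HSPA4 gave 0.15 ± 0.30, and HSPA2 −0.44 ± 0.38, with both senescent libraries below both young ones. The young control footprint libraries lay closer together than other pairs did (chi-square per gene 1.73), so separation from them is easier to reach. In RNA the difference was 0.26 ± 0.17 for HSPA8, where the lower senescent library barely cleared the higher young one (2390 against 2382 CPM). It was −0.44 ± 0.53 for HSPA2, −0.11 ± 0.57 for HSPH1, −0.07 ± 0.29 for HSPA4 and 0.54 ± 0.76 for HSPA4L. The last ran from 0.09 to 1.22 with 1 library left out. With the replicate block 3.72% of all genes passed in RNA, and again none of the 5 genes did (adjusted p from 0.204 to 0.777). With 2 against 2 libraries an exact two-sided permutation test cannot give p under 0.333, so the separations between controls carry no test. Their share over all genes was not counted.

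Under heat shock the RNA of HSPA8, HSPA4 and HSPA4L was lower in both senescent than in both young libraries, and that of HSPH1 and HSPA2 overlapped. This order of 2 against 2 libraries carries no test, and its share over all genes was not counted. The differences were −0.40 ± 0.17 for HSPA8, −0.79 ± 0.29 for HSPA4, −2.02 ± 0.74 for HSPA4L and −0.97 ± 0.57 for HSPH1, with adjusted p from 0.375 to 0.528, and −0.14 ± 0.54 for HSPA2 (adjusted p = 0.922). Without senescent heat-shocked replicate 1 that of HSPA4L was −3.20, and without young heat-shocked replicate 1 it was −0.67. No gene of the table passed this comparison (0%; 1520 at an unadjusted p under 0.05, 245 called by DESeq2 and 6 by limma). With the replicate block 13.7% of all genes passed, 5.62% lower in senescent cells, and 4 of the 5 genes were among the latter. They were HSPA8 (−0.40, adjusted p = 0.0462), HSPH1 (−1.04, 0.0274), HSPA4 (−0.81, 0.0117) and HSPA4L (−1.97, 0.0134). In footprints HSPA8 differed by 0.19 ± 0.23, HSPH1 by −0.37 ± 0.23, HSPA4 by −0.21 ± 0.30, HSPA2 by −0.28 ± 0.37 and HSPA4L by −0.97 ± 0.30. None passed (0.00886% of genes did). HSPA4L did pass without senescent heat-shocked replicate 1 (−1.48, adjusted p = 0.0393), where 494 genes passed in place of 1. The part of the higher keratin levels of senescent libraries in these differences was not tested.

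On heat shock the translational efficiency, the footprint change minus the RNA change, passed for none of the 5 in young cells (0.0896% of 11166 genes passed) or senescent cells (2.33%). HSPA8 changed by 0.17 ± 0.29 in young (95% interval −0.45 to 0.78) and 0.49 ± 0.29 in senescent cells (−0.13 to 1.10). HSPH1 gave 0.41 ± 0.67 and 0.65 ± 0.67, HSPA4 0.16 ± 0.45 and 0.52 ± 0.45, and HSPA4L −0.60 ± 0.89 and 0.14 ± 0.89. The highest values were those of HSPA2, 1.23 ± 0.71 (−0.29 to 2.75, adjusted p = 1) and 1.10 ± 0.72 (−0.43 to 2.64, adjusted p = 0.456). Between the states 0 of the 5 passed in efficiency either, in the difference of the responses (0.00896% of genes passed), in controls (0.00896%) or under heat shock (0%; 733 genes at an unadjusted p under 0.05, 23 called by DESeq2 and 2 by limma). HSPA8 gave 0.32 ± 0.40, 0.27 ± 0.29 and 0.59 ± 0.29 in these comparisons, HSPH1 0.24 ± 0.95, 0.37 ± 0.67 and 0.61 ± 0.67, and HSPA4 0.36 ± 0.63, 0.23 ± 0.45 and 0.59 ± 0.45. HSPA4L gave 0.73 ± 1.26, 0.32 ± 0.91 and 1.06 ± 0.87, and HSPA2 −0.12 ± 1.01, −0.01 ± 0.71 and −0.13 ± 0.71. These intervals are wide, and a missed threshold does not show that efficiency was equal.

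As a level, the ratio of footprint to RNA TPM of HSPA8 was 0.660 in young controls (0.585 to 0.755 over pairs of libraries), where the median gene had 0.863. It was 0.880 (0.679 to 1.13) in senescent controls, against a median of 0.956. After heat shock it was 0.817 (0.718 to 0.930) in young and 1.15 (0.831 to 1.56) in senescent cells, against medians of 0.952 and 0.968. For both senescent groups the range takes in the median. The ratio of HSPH1 was 0.997 (0.779 to 1.36) in young controls and 2.00 (0.929 to 6.05) in heat-shocked senescent cells, ranges that overlap. The ratio depends on the lengths by which each table was scaled. The length implied by counts and TPM for HSPH1, relative to that for HSPA8, was 2.16 to 2.20 in the RNA-seq table and 1.29 to 1.37 in the Ribo-seq table. Ratios between genes carry that difference between assays. Ratios between groups of 1 gene carry the smaller spread between libraries within each assay.

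The partners of HSP70 were counted by list. Over all genes tested, 0.668% rose in RNA of young and 0.364% of senescent cells. In footprints 0.771% rose and 0.381% fell in young cells, and 3.12% rose in senescent cells. Of the 5 other cytosolic HSP70 genes 4 rose in RNA in each state, and 3 in young and 4 in senescent cells in footprints. HSPA6, a strictly inducible HSP70, rose by 11.45 ± 0.33 in RNA of young and 11.37 ± 0.34 of senescent cells, and HSPA1B, an inducible HSP70 near-identical to HSPA1A, by 8.24 ± 0.27 and 7.92 ± 0.27, values that are uncertain where reads were split between the copies. Of 12 J-domain genes 3 and 2 rose in RNA, and 4 of 11 rose in footprints in each state. DNAJB1, which works with HSP70 and HSP110 on aggregates, rose by 5.74 ± 0.22 and 5.01 ± 0.22 in RNA, and DNAJA4 by 5.95 ± 0.51 and 5.39 ± 0.62.

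Among 6 other exchange factors BAG3 rose in both states and both assays, by 5.11 ± 0.20 and 3.74 ± 0.20 in RNA, and 1 fell, BAG1, in footprints of young cells (−1.59 ± 0.27, adjusted p = 0.0329). Of 5 adaptors and ligases of the HSP70 and HSP90 cycle 2 rose in RNA of young cells, HSP90AB1 (1.68 ± 0.25) and STIP1 (1.56 ± 0.17), which joins HSP70 to HSP90, and 0 in senescent cells. In footprints 3 of 5 rose in each state, led by the HSP90 genes HSP90AA1 (2.76 ± 0.31 in young, 2.24 ± 0.31 in senescent cells) and HSP90AB1 (1.81 ± 0.22 and 1.57 ± 0.22). Of 7 counterparts in the endoplasmic reticulum and mitochondria HSPA5, the HSP70 of the endoplasmic reticulum, rose in RNA of young cells (1.78 ± 0.31). In footprints HSPA5 rose in both states (1.71 ± 0.20 and 1.14 ± 0.20) and GRPEL1, a mitochondrial exchange factor, in senescent cells (0.88 ± 0.20). Differences in these counts between states were not tested as counts, and no gene of these lists passed the test of the difference of responses. With 1 library left out, the adaptors called in young cells numbered 0 to 2 in RNA and 0 to 3 in footprints and the organelle counterparts 0 to 1 in both, and in senescent footprints they numbered 1 to 3 and 0 to 2. In RNA the adaptors were at 0 without either young control or young heat-shocked replicate 1, and the organelle counterparts without any library but young heat-shocked replicate 2. In footprints of young cells both were at 0 without either young control library or with these counted as 1 sample, and 1 other exchange factor was called in place of 2, as it was without either young heat-shocked library. In senescent footprints the adaptors were at 1 without senescent control replicate 2, and the organelle counterparts were at 0 without either senescent control or young control replicate 1. The J-domain genes numbered 1 in RNA of senescent cells without either senescent control, and 2 in footprints of young cells without young control replicate 1.

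Across the 16 libraries the genes closest to each member by centred log2 CPM profile were found among 7454 genes, by root mean square difference. The cut of 10 CPM was put on the average across the libraries of an assay, so single libraries could lie below it. HSPA4L lay below it in RNA of young controls (8.13 and 3.71 CPM) and far above it after heat shock there (143 and 34.8 CPM). HSPA8 lay closest to HSP90AB1 (0.18), AKAP8L (0.27) and NKRF (0.28), against a median of 0.88 over all genes, and HSPA4 was 11th (0.35). Among the genes closest to HSPA4 were PUS3 (0.18) and AHSA1 (0.20). HSPH1 lay closest to DNAJB4 (0.48), BAG3 (0.52) and FAM46A (0.56), against a median of 2.14, and HSPA4L to WDCP (0.52), HERPUD1 (0.53) and HSP90AA1 (0.54), against 1.47. HSPA2 lay closest to FAM127C (0.27), C11orf49 (0.32) and POLD1 (0.33), against 0.63, and the other 4 genes were all farther from it than that median. All profiles share the same libraries and their depth.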

How the data were processed

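RNA-seq and Ribo-seq were measured in 16 libraries of WI-38 cells. For each gene the authors deposited expected counts from RSEM, whole numbers in the files, and TPM, a level scaled by gene length. STAR, RSEM, Bowtie2 and the build hg19 appear in the submitters' processing notes. Neither their roles nor the annotation, the use of strand or the removal of ribosomal reads are stated there.

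Within each assay, filterByExpr removed low expected counts, TMM scaled the libraries, and edgeR 4.0.16 (quasi-likelihood F test, R 4.3.3) fitted 1 mean per group. This covered 13177 genes of the RNA-seq and 11288 of the Ribo-seq table. Efficiency came from all 16 libraries over 11166 genes. All 5 genes were tested in each. Benjamini-Hochberg adjustment was made within a comparison, with a threshold of 0.05. SEs are Wald SEs scaled by the quasi-dispersion. TPM was used for levels between genes, pools and ratios. The procedure was run on simulated counts with independent libraries and 1 fixed dispersion. Those counts lack the shared deviations of same-numbered RNA-seq libraries given below, so that run does not cover them. The reads carry no molecular identifiers.

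Deviations of same-numbered RNA-seq libraries from their group means correlated over genes at 0.582 to 0.81 between groups, and those of Ribo-seq libraries at −0.0465 to 0.373. The labels number the replicates and do not say what a number marks, so the pairing comes from the RNA data. The alternatives were relative log expression (RLE) scaling, scaling by library size alone, leaving out the filter, the replicate block, DESeq2 1.42.0, limma 3.58.1 on log2(TPM + 1) for genes at 1 TPM or more in 2 or more libraries, and each library left out in turn. Summing both young control footprint libraries into 1 sample was chosen after seeing the data.

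The 5 genes and all lists were chosen with earlier results of these data known. Other genes are counted by list, and of each list the 2 called genes with the largest change in the heat shock comparisons are named, with values only where the controls hold enough counts for a fold. The 3 genes most like each member are named by profile, apart from 1 that is not reported here. BAG1 was named as the single gene of its list that fell, and CDKN1A, LMNB1, CDKN2A and MKI67 as markers of state, after their values were seen. Promoter windows came from RefSeq (GRCh38.p14), and no coordinate of the deposited tables was used.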

Additional observations from a re-analysis of the deposited data

How the results depend on the processing

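Each heat shock, state and efficiency change of the 5 genes was counted once per alternative, apart from libraries left out. Of these, 471 kept their direction and their side of the threshold, 21 came to pass it, 5 no longer passed and 3 changed direction. The number of the 5 genes called on heat shock in RNA of young cells, 2, was 4 with no filter on low counts, 5 with the replicate block and 4 with DESeq2. In RNA of senescent cells it was 1, and 0 with library size only, 2 with no filter, 3 with the block, 2 with DESeq2 and 0 with limma on TPM. Under heat shock the number differing between senescent and young RNA was 0, and 4 with the block. In footprints same-numbered libraries deviated together less than in RNA. There the block, DESeq2 and no filter gave 4 called in each state in place of 3. With the young control libraries as 1 sample 2 were called in each state, without HSPA8 in young and HSPA4L in senescent cells, and limma on TPM called 2 in senescent cells, without HSPA4L. The block changed no other count of called members. The cause of these shifts was not tested. The counts of all genes called were 150 (153 to 1156 over the alternatives without left-out libraries) and 76 (75 to 828) for RNA on heat shock in young and senescent cells, and 130 (27 to 447) and 943 (247 to 1667) for footprints. For efficiency they were 10 (5 to 57) and 260 (146 to 1187). With each library left out in turn they were 33 to 123 and 15 to 65 in RNA, 27 to 275 and 237 to 1934 in footprints, and 5 to 19 and 48 to 677 in efficiency. For footprints of senescent against young cells under heat shock 1 gene was called, and 0 to 494 with a library left out, 494 without senescent heat-shocked replicate 1.

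The changes of direction were all in small values: HSPA8 footprints in senescent against young cells under heat shock at 0.00 with limma on TPM, and HSPA2 efficiency in senescent against young controls at 0.08 with limma on TPM and 0.00 with the young control footprints as 1 sample.

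With each library left out in turn, the called number ran from 0 to 3 and from 0 to 1 for RNA on heat shock in young and senescent cells, from 2 to 4 and from 1 to 4 for footprints, and from 0 to 1 for footprints of senescent against young cells under heat shock. None of the changes that passed the test changed direction. The ranges that crossed or reached 0 were these. For HSPA2 in RNA they were −0.87 to 0.05 on heat shock in senescent cells, −0.31 to 1.07 for the difference of responses, −0.90 to 0.17 between controls and −0.67 to 0.66 under heat shock. In footprints HSPA2 gave −0.02 to 0.89 on heat shock in young cells, −0.41 to 0.67 for the difference and −0.87 to 0.22 between states under heat shock. HSPH1 RNA between controls gave −0.51 to 0.23 and HSPA4 RNA −0.28 to 0.12. HSPA4 footprints gave −0.91 to 0.01 for the difference, 0.00 to 0.29 between controls and −0.77 to 0.15 under heat shock, and HSPA8 footprints −0.03 to 0.33 under heat shock.

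For efficiency on heat shock, the ranges were −0.12 to 0.38 (HSPA4), −1.31 to 0.76 (HSPA4L) and −0.11 to 1.16 (HSPH1) in young cells, and −0.49 to 1.33 (HSPA4L) and −0.04 to 0.92 (HSPA4) in senescent cells. For its difference they were −0.89 to 0.49 (HSPA2), −0.51 to 1.33 (HSPH1), −0.62 to 1.94 (HSPA4L) and −0.19 to 0.77 (HSPA4). Between states they were −0.61 to 0.46 (HSPA2) and −0.36 to 0.77 (HSPA4L) in controls, and −0.92 to 0.39 (HSPA2), −0.14 to 1.68 (HSPH1) and −0.30 to 2.25 (HSPA4L) under heat shock.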

Other observations

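The replicates of the RNA-seq groups differed in the same direction for each gene. Replicate 1 was above replicate 2 in all 4 RNA groups for HSPA8 (1.07 to 1.20 times), HSPA4 (1.30 to 1.62 times), HSPH1 (1.54 to 3.18 times) and HSPA4L (1.42 to 4.10 times), and below it for HSPA2 (0.393 to 0.586). For HSPH1 the gap was 1.54 and 1.63 times in young and senescent controls and 2.35 and 3.18 times after heat shock. For HSPA4L it was 2.19 and 1.42 times in controls and 4.10 and 3.52 times after heat shock. In footprints the gaps of HSPH1 were 0.948 and 1.24 in controls and 1.22 and 1.49 after heat shock. The labels do not say what a replicate number marks, and its part in these gaps was not tested.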
